A study of Mus musculus with 4 samples.

Results

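Cell cycle and DNA replication genes are described here in the cochlea of mice lacking otoferlin, as 42 named genes of the 24411 in a table of estimated counts. They comprise 19 S phase genes, which act in the G1/S transition and in copying DNA, and 23 G2/M genes, which act in chromosome condensation, spindle function and cell division. All 42 were found by symbol, and all 42 were among the 15359 genes that passed a filter on low counts. Members were taken by name, from a list drawn up with earlier results of these data known.

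Messenger RNA was sequenced from cochlear tissue at postnatal day 7. The groups were mice with 1 or with 2 knockout alleles of Otof (heterozygous and homozygous). Otof encodes otoferlin, the protein through which calcium triggers transmitter release at inner hair cell synapses. Both groups carried the knockout allele, and no wild-type animals were among the 4 libraries. Each library was a pool of both cochleas from 2 to 3 pups, with 2 pools per genotype. The sources used here do not give the mouse strain, the sex of the pups or the design of the knockout allele. The labels do not say whether the pools came from separate litters, so that p-values measure only the spread between these pools.

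Cells enter S phase when cyclin-dependent kinases release E2F transcription factors from the retinoblastoma proteins, and E2F target genes then license replication origins and supply nucleotides and fork proteins. Genes of G2 and mitosis are switched on later, through the MuvB complex with B-MYB and FOXM1, which act at promoters with CCAAT boxes and a cell cycle homology region. In the mouse cochlea, hair cells, supporting cells and spiral ganglion neurons leave the cell cycle before birth. After birth, dividing cells lie mainly among glia, fibroblasts, blood vessel cells, macrophages and the cells of the bony capsule.

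The libraries held 31509350 to 38090724 estimated counts. As a check of the labels, heterozygous pools had 86 and 83 Otof counts, and homozygous pools had 5 and 9. Of the cochlear hair cell markers, Atoh1 was at 0 counts in every library and Pou4f3 had 7, 0, 0 and 0 counts, while Myo7a had at least 1197 counts in each library. Levels are given as counts per 1000000 (CPM). A count of 0 allows up to 3 counts, by counting error alone, or 0.0776 to 0.0944 CPM here, and the members lay far above that, between 88 and 3391 counts in any library.

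Proximal promoters of the S phase and G2/M genes differed in how often they held E2F and cell cycle homology matches. For that reason 5 of them are shown. RefSeq promoters of 300 bases, from 250 before to 50 after the annotated start on GRCm38.p6, were found for 34 of the 42 members, 15 S phase genes with 17 promoters and 19 G2/M genes with 20. Each was searched on both strands for CCAAT, for the core of the cell cycle homology region (TTTGAA), and for 4 spellings of the E2F site (TTTGGCGC, TTTCCCGC, TTTGCCGC and TTTCGCGC). Capitals mark these matches in either orientation, and neighbouring E2F and CCAAT matches can share letters. Mcm5 (chr8:75109259-75109558, plus strand) and Mcm7 (chr5:138171834-138172133, minus strand) encode subunits of the replicative helicase and have E2F matches. A second promoter of Mcm7 in the table has none. Ccnb2 (chr9:70421505-70421804, minus strand), which encodes cyclin B2, and Top2a (chr11:99024140-99024439, minus strand), which encodes the topoisomerase that untangles sister chromatids, have CCAAT and TTTGAA matches. Ccne1 (chr7:38107441-38107740, minus strand), which encodes cyclin E1 and had the lowest fold change of all members, has none of the 3 motifs in this window. Neither do Melk, Nusap1, Tyms, E2f1 and Birc5, whose log2 fold changes were 0.32 to 0.63.
Mcm5: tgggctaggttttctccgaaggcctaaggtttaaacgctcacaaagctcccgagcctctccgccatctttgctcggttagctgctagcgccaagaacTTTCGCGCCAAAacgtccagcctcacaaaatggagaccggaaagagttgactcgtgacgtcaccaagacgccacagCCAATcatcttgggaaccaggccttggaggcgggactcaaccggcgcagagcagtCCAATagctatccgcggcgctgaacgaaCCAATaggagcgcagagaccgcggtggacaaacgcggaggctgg
Mcm7: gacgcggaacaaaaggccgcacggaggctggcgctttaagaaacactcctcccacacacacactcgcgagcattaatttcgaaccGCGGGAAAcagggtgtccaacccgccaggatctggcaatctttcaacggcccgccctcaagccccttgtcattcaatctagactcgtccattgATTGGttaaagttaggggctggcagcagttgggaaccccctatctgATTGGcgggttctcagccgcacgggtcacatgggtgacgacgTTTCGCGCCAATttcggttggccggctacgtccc
Ccnb2: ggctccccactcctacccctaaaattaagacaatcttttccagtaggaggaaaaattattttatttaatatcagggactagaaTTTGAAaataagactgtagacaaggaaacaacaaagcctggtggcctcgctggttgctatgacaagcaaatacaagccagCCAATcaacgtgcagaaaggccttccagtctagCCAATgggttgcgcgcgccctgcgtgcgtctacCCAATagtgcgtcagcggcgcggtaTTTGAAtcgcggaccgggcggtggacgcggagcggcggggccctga
Top2a: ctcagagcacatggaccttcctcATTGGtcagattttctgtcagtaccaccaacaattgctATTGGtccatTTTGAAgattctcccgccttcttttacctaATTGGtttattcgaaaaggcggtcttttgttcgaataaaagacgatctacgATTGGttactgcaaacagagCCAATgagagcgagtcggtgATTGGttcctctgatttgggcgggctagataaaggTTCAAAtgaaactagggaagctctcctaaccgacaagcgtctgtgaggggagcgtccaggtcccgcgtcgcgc
Ccne1: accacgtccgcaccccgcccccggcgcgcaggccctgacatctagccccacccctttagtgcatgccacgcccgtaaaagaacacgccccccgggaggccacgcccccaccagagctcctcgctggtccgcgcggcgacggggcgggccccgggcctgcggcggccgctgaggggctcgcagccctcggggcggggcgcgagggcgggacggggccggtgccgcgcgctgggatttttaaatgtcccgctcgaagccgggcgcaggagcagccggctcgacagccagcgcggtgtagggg

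TTTGAA was in 14 of the 20 G2/M promoters (70%) and in 2 of the 17 S phase promoters (11.8%), against 17.9% of all 32851 promoters in the table. The same 14 G2/M promoters also held CCAAT, a combination found in 6.95% of all promoters. An E2F spelling was in 7 of the 17 S phase promoters (41.2%), in 1 of the 20 G2/M promoters (5%), that of Cdk1, and in 2.26% of all promoters. CCAAT was frequent in both, in 70.6% of S phase and 85% of G2/M promoters, against 37.4% of all. The 2 promoters of Prc1 overlap each other. These matches are descriptions of sequence, and binding was not measured.

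Both classes of genes were higher in the homozygous pools, and G2/M genes somewhat more than S phase genes. Summed over the 23 G2/M genes, the level was 280 and 327 CPM in heterozygous replicates 1 and 2 and 429 and 403 CPM in homozygous replicates 1 and 2. Summed over the 19 S phase genes it was 357 and 389 CPM against 453 and 466 CPM. Homozygous and heterozygous pools were separate in both sums, and heterozygous replicate 1 was the lowest library in both. The ratio of the homozygous to the heterozygous mean was 1.37 for G2/M and 1.23 for S phase genes, while the heterozygous pools themselves differed 1.17-fold and 1.09-fold. These sums give most weight to abundant genes, such as Pcna in the S phase sum (78.8 of 373 CPM in the heterozygous mean, fold 1.12). The median fold per gene was 1.38 for G2/M and 1.31 for S phase genes. In bulk tissue a larger number of dividing cells and more of these transcripts per cell cannot be told apart.

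The median log2 fold change (homozygous over heterozygous) was 0.46 for the G2/M genes, with a range of 0.19 to 0.68, and 0.39 for the S phase genes, with a range of -0.083 to 0.55. The median of all genes tested was 0.0087. The summed G2/M level was 0.784 and 0.842 times the S phase level in the heterozygous pools and 0.947 and 0.865 times in the homozygous pools. This ratio was higher in both homozygous pools, but the gap between the genotypes was smaller than the gap between replicates, and the difference was not tested. All 23 G2/M genes and 18 of the 19 S phase genes had a fold change above 0, against 51.8% of all genes tested.

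No member passed the main test, edgeR's quasi-likelihood test with Benjamini-Hochberg adjustment over all genes (smallest adjusted p = 0.152), which called 0 genes in the whole table (0%). At an unadjusted p under 0.05, 22 of the 42 were higher, 14 of the G2/M and 8 of the S phase genes, and 0 were lower, against 4.36% of all genes higher and 8.91% lower. DESeq2, the tool that the submitters name, called 2 members at an adjusted p of 0.05, Uhrf1 and Aurkb, both higher, against 0.986% of its genes higher and 3.16% lower. For 36 of the 42, 21 of G2/M and 15 of S phase, both homozygous pools lay above both heterozygous pools, against 21.6% of all genes. With 2 pools against 2, an exact two-sided permutation test of a single gene cannot go below p = 0.333, and none was run.

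Heterozygous replicate 1 was the lowest library for 38 of the 42 genes, and heterozygous replicate 2 for the other 4, Ccnb2, Kif23, E2f1 and Ccne2. The highest library was homozygous replicate 1 for 20 genes, 13 of them G2/M genes, and homozygous replicate 2 for 21, 11 of them S phase genes. Ccne1 alone was highest in a heterozygous pool. With any 1 of the 4 pools left out, fewer members were higher at an unadjusted edgeR p under 0.05. These fits keep 1 pool of a genotype, so the counts are not given. The share of all genes higher at that p did not fall in every one of these 4 fits. The median log2 fold change over these 4 fits lay between 0.33 and 0.58 for G2/M and between 0.25 and 0.43 for S phase genes.

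**Figure D1:**
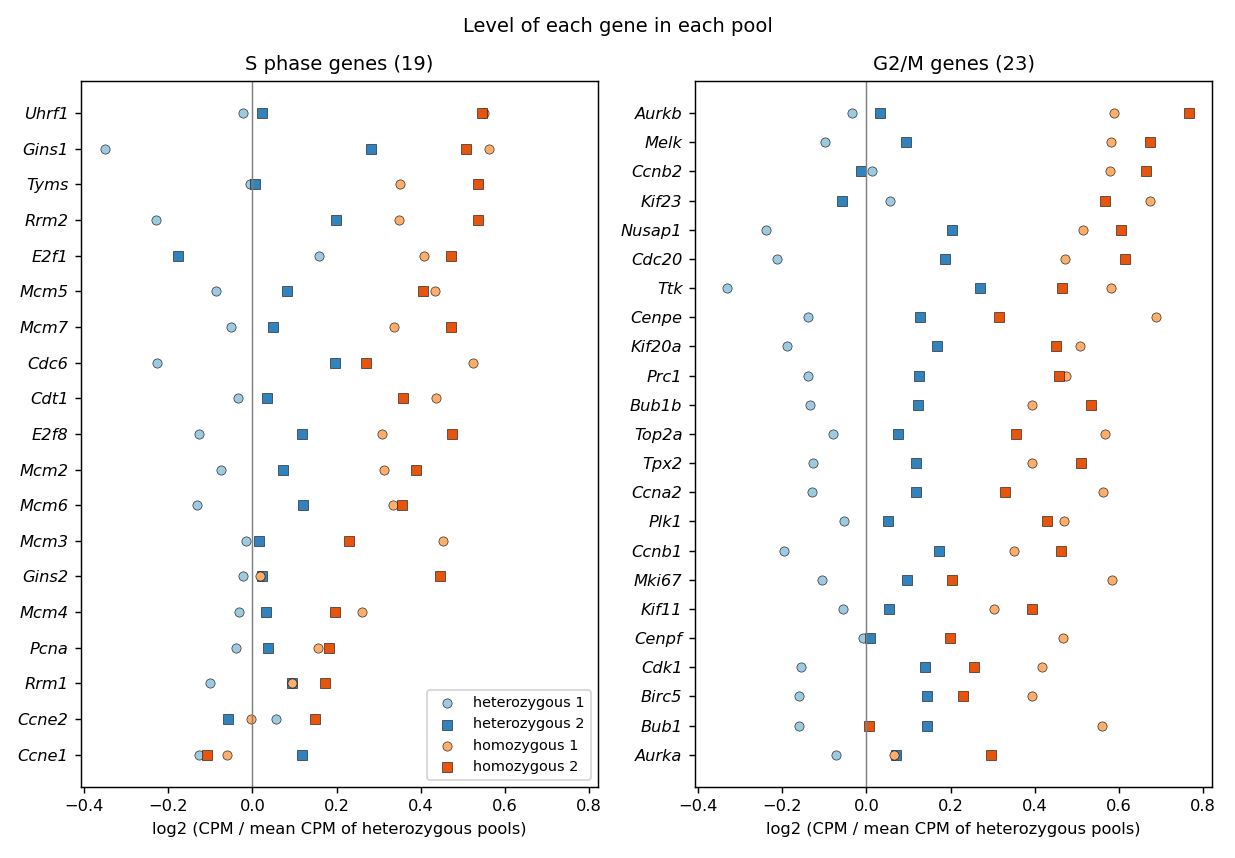
Level of each of the 42 genes in each pool, as log2 of its CPM over the mean CPM of the heterozygous pools, for the S phase genes (left) and the G2/M genes (right), ordered by fold change. Circles are replicate 1 and squares replicate 2 of each genotype, and homozygous pools (orange) lie to the right of both heterozygous pools (blue) for 36 of 42 genes.

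Among the S phase genes, those of the MCM helicase were all higher. Mcm2 to Mcm7 encode the 6 subunits of the ring that is loaded at origins and unwinds DNA. All 6 were higher in both homozygous pools than in either heterozygous pool, against 21.6% of all genes tested. For 5 of them the unadjusted edgeR p was under 0.05, against 4.36% of all genes higher at that p. The log2 fold changes of all 6 ran from 0.23 (Mcm4) to 0.42 (Mcm5). Mcm7 was at 40.4 and 43.2 CPM in the heterozygous pools and at 52.8 and 58.0 CPM in the homozygous pools. Its log2 fold change of 0.41 ± 0.090 (SE) had an edgeR adjusted p of 0.207 and a DESeq2 adjusted p of 0.0522, just outside the threshold. Exons of Mcm7 overlap those of Ap4m1 on the other strand, and reads of the pair cannot be told apart where strand is not kept. The same holds for Ccna2, Kif20a, Nusap1, E2f8, Gins2 and Ccne2, each with another partner, and for 2 genes named further on.

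Mcm5 had 20.2 and 22.7 CPM in heterozygous and 28.9 and 28.4 CPM in homozygous pools, a log2 fold change of 0.42 ± 0.11 (edgeR adjusted p = 0.242). Mcm2 had 24.0 and 26.6 against 31.4 and 33.1 CPM, and Mcm3 had 19.0 and 19.4 against 26.3 and 22.5 CPM. For each of these genes the groups did not overlap, and the gap between the groups exceeded the gap within the heterozygous pair. For Mcm3 the gap between the groups was smaller than the gap within the homozygous pair. The edgeR adjusted p-values were 0.274 for Mcm2 and 0.347 for Mcm3.

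Of the genes that license origins or build the moving helicase, Cdt1 and Cdc6, which load the MCM ring, and Gins1 and Gins2, subunits of the GINS complex that activates it, had log2 fold changes of 0.40, 0.41, 0.54 and 0.25. Only Cdt1 had an unadjusted edgeR p under 0.05 (0.0405). The errors of the less abundant genes were wide, with a standard error of 0.28 for Gins1 and 0.25 for Cdc6. Gins2 overlapped between genotypes, with 6.21 and 6.42 CPM in heterozygous and 6.39 and 8.60 CPM in homozygous pools.

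Uhrf1 rose by DESeq2 and had the smallest p of all members. It encodes the protein that reads hemimethylated DNA behind the fork and recruits DNMT1, the maintenance methyltransferase. Uhrf1 (chromosome 17, 56303321 to 56323486, GRCm38) had 18.8 and 19.4 CPM in the heterozygous and 28.0 and 27.9 CPM in the homozygous pools, so that replicates of a genotype nearly coincided. Its log2 fold change was 0.55 ± 0.095, with an edgeR adjusted p of 0.152 and a DESeq2 adjusted p of 0.0099. The authors' deposited table of 343 changed genes lists Uhrf1 at a log2 fold change of 0.56 and an adjusted p of 0.00889, and it lists no other member. That table goes no further than an adjusted p of 0.00982 and holds no absolute log2 fold change under 0.50. Aurkb lay outside the first limit, at a DESeq2 adjusted p of 0.0353, and inside the second, at a DESeq2 log2 fold change of 0.69. DESeq2 called neither Uhrf1 nor Aurkb once any 1 of the 4 pools was left out, with adjusted p-values of 0.384 to 0.848 for Uhrf1 and at least 0.367 for Aurkb, or with the replicate number as a block (0.132 and 0.227).

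The nucleotide and clamp genes spread widely. Rrm2, the small subunit of ribonucleotide reductase whose level follows S phase, had a log2 fold change of 0.44 ± 0.18, while Rrm1, the large subunit, had 0.13 ± 0.099 and overlapped between genotypes. Pcna, the sliding clamp, had the highest level per length of any member, at 32.8 CPM per kilobase of exon in the heterozygous mean, and one of the smallest fold changes (0.17 ± 0.072). Its 4 values, 76.7 and 80.8 against 87.7 and 89.3 CPM, still did not overlap.

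Tyms, thymidylate synthase, lies 0.349 Mb from Otof (midpoint to midpoint) on chromosome 5 (30058202 to 30073617, GRCm38), a distance at which alleles are usually inherited together. It had 9.19 and 9.28 CPM in heterozygous and 11.8 and 13.4 CPM in homozygous pools, a log2 fold change of 0.45 ± 0.14 (edgeR adjusted p = 0.313, DESeq2 adjusted p = 0.323). Cenpa, the centromeric histone H3 variant, lies 0.256 Mb from Otof and had 10.3 and 10.6 against 11.6 and 10.9 CPM, a log2 fold change of 0.10 ± 0.13. The part of the linked region in these values was not tested. No other member lay within 10 Mb of Otof.

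The G1/S cyclins had fold changes near 0. Ccne1 and Ccne2 encode the E cyclins, which with CDK2 start S phase and are themselves E2F targets. Ccne1 had 5.28 and 6.26 CPM in heterozygous and 5.54 and 5.36 CPM in homozygous pools, a log2 fold change of -0.083 ± 0.19 (edgeR adjusted p = 0.898). Its sign turned, to 0.045, without heterozygous replicate 2. Ccne2 had 0.074 ± 0.16, and both genes overlapped between genotypes. The transcription factor genes E2f1, an activator, and E2f8, a repressor of E2F targets, had 0.44 ± 0.17 and 0.39 ± 0.19, with unadjusted edgeR p-values of 0.0522 and 0.0954.

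**Figure D2:**
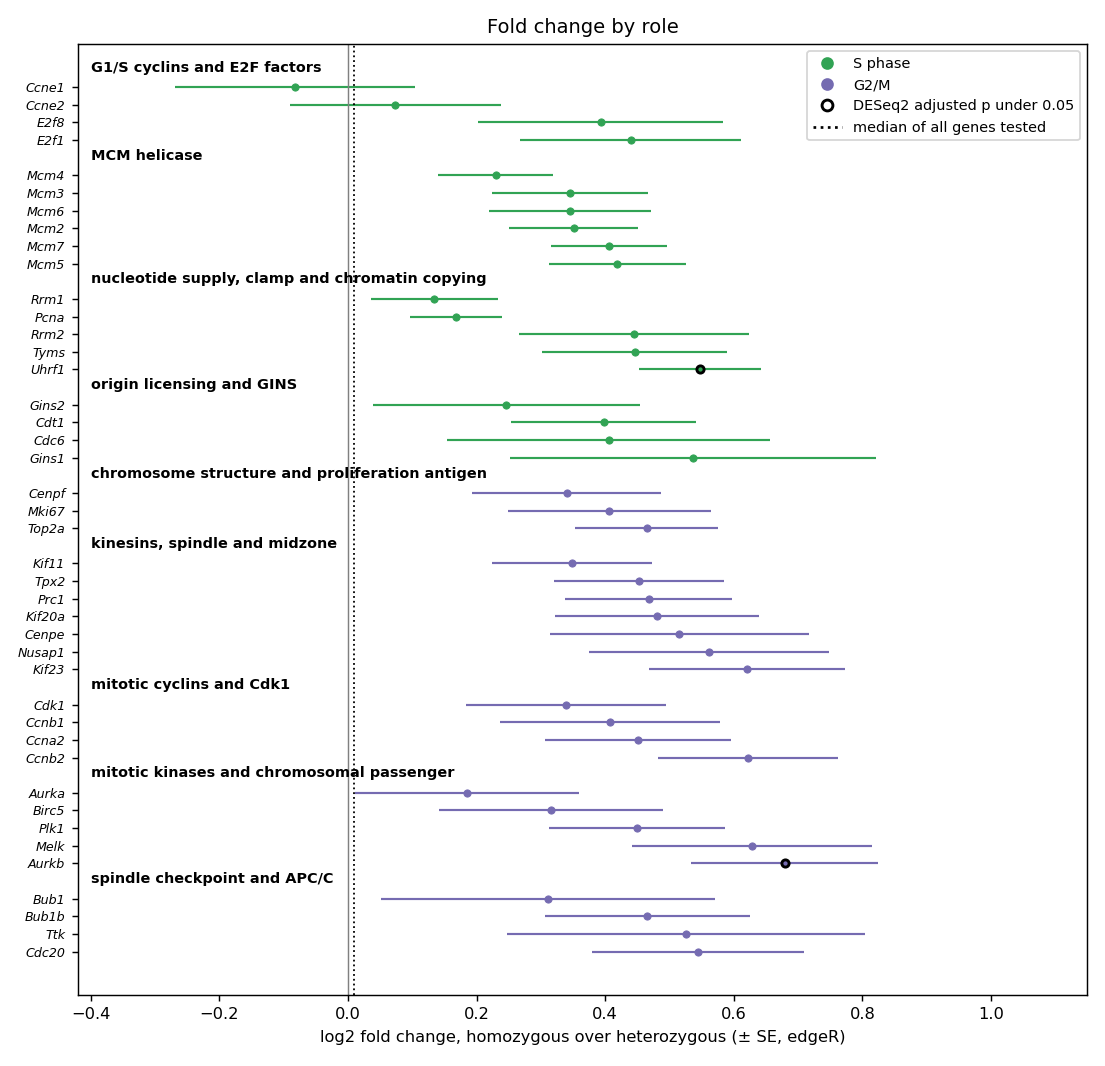
Log2 fold change (homozygous over heterozygous, ± SE from edgeR's fit, 2 pools per genotype) of the 42 genes grouped by role, S phase in green and G2/M in purple. Ringed points are the 2 genes with a DESeq2 adjusted p under 0.05, Uhrf1 and Aurkb, and Ccne1 is the only gene to the left of 0.

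Among the G2/M genes the mitotic cyclins and their kinase were all higher without overlap, against 21.6% of all genes tested. Ccnb2 had 7.56 and 7.42 CPM in heterozygous and 11.2 and 11.9 CPM in homozygous pools, a log2 fold change of 0.62 ± 0.14 (edgeR adjusted p = 0.211, DESeq2 adjusted p = 0.0713). Cdk1, the kinase that drives entry into mitosis, had 0.34 ± 0.15, Ccna2, cyclin A2, 0.45 ± 0.14, and Ccnb1, cyclin B1, 0.41 ± 0.17. Of these only Ccna2 and Ccnb2 had an unadjusted edgeR p under 0.05, against 4.36% of all genes higher at that p. Processed copies named for Ccnb1 and Ccnb2 are in the annotation, as are copies of Pcna and Tyms, so reads of these 4 genes could be shared. The counted Tyms copy was at 0 in every library.

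Aurkb rose by DESeq2 and had the highest fold change of all 42 genes. It encodes Aurora B, the kinase of the chromosomal passenger complex that corrects faulty spindle attachments. Aurkb (chromosome 11, 69045647 to 69051664, GRCm38) had 7.98 and 8.37 CPM in heterozygous and 12.3 and 13.9 CPM in homozygous pools, a log2 fold change of 0.68 ± 0.15 (edgeR adjusted p = 0.203, DESeq2 adjusted p = 0.0353). Aurka, the related kinase of centrosomes and spindle poles, had the lowest fold change of the G2/M genes, with 6.44 and 7.11 CPM against 7.09 and 8.32 CPM, and overlapped between genotypes (0.19 ± 0.17, edgeR adjusted p = 0.715). Birc5, survivin, a partner of Aurora B in the passenger complex, had 0.32 ± 0.17.

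The kinase genes Melk and Plk1, the second of which encodes the Polo kinase of mitotic entry and exit, had unadjusted edgeR p-values under 0.05. Melk was at 3.94 and 4.50 CPM in heterozygous and at 6.31 and 6.73 CPM in homozygous pools, a log2 fold change of 0.63 ± 0.19 (edgeR adjusted p = 0.286). Plk1 had a log2 fold change of 0.45 ± 0.14. Exons of Plk1 overlap those of the gene model Gm44985 on the other strand.

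Genes of the central spindle were higher in both homozygous pools. Kif23, a kinesin of the midzone and midbody, had 6.92 and 6.39 CPM in heterozygous and 10.6 and 9.85 CPM in homozygous pools (log2 fold change 0.62 ± 0.15, edgeR adjusted p = 0.227). Prc1, which bundles midzone microtubules, had 16.2 and 19.5 against 24.8 and 24.5 CPM (0.47 ± 0.13, edgeR adjusted p = 0.267), and its exons overlap those of Rccd1 on the other strand. Tpx2, which activates Aurora A and nucleates spindle microtubules, had 15.7 and 18.6 against 22.6 and 24.4 CPM (0.45 ± 0.13, edgeR adjusted p = 0.281). For each of the 7 kinesin, spindle and midzone genes both homozygous pools were above both heterozygous ones, against 21.6% of all genes tested. An unadjusted edgeR p under 0.05 was found for 6 of the 7, against 4.36% of all genes higher at that p. The other 4 were Kif11 (0.35), Kif20a (0.48), Cenpe (0.52) and Nusap1 (0.56), given as log2 fold changes.

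Of the spindle checkpoint and its target, Cdc20, the activator of the anaphase-promoting complex, had 16.8 and 22.2 CPM in heterozygous and 27.1 and 29.9 CPM in homozygous pools. Its log2 fold change was 0.54 ± 0.16 (edgeR adjusted p = 0.292, DESeq2 adjusted p = 0.12). The checkpoint kinases and adaptor Bub1b, Ttk and Bub1 had 0.47 ± 0.16, 0.53 ± 0.28 and 0.31 ± 0.26. Bub1 overlapped between genotypes, as homozygous replicate 1 had 8.10 CPM and homozygous replicate 2 had 5.52 CPM, below heterozygous replicate 2 at 6.07 CPM. Its log2 fold change was -0.0036 without homozygous replicate 1.

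Mki67 and Top2a, common markers of dividing cells, were also higher in both homozygous pools, by differing amounts. Top2a had 39.6 and 44.1 CPM in heterozygous and 62.0 and 53.5 CPM in homozygous pools, a log2 fold change of 0.46 ± 0.11 (edgeR adjusted p = 0.222, DESeq2 adjusted p = 0.0517). Mki67, the antigen Ki-67, which coats mitotic chromosomes, had 32.0 and 36.9 CPM against 51.6 and 39.7 CPM, so homozygous replicate 2 lay close to heterozygous replicate 2. With Cenpf, a kinetochore protein, they formed the group in which homozygous replicate 1 stood highest for all 3 genes. The median log2 ratio to the heterozygous mean in this group was 0.57 in homozygous replicate 1 and 0.20 in replicate 2.

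Levels per kilobase of exon in the heterozygous mean ran from 0.647 (Ttk) to 10.5 CPM (Cdc20) among G2/M genes and from 0.667 (Cdc6) to 32.8 CPM (Pcna) among S phase genes, with medians of 2.75 and 3.64 CPM. Exon length was the union of annotated exons, which overstates the length of genes whose longer isoforms are not used.

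Further genes of the cell cycle, listed by function, mostly had fold changes on the same side. For comparison with each list, 51.8% of all genes tested had a fold change above 0. At an unadjusted edgeR p under 0.05, 4.36% of all genes were higher and 8.91% lower. Of 61 other mitotic genes, 60 had a fold change above 0, and 16 were higher at that p and 0 lower. The median log2 fold change was 0.38. Foxm1, a transcription factor of G2/M genes, had 14.8 and 17.0 CPM in heterozygous and 24.1 and 22.0 CPM in homozygous pools (0.53 ± 0.13, DESeq2 adjusted p = 0.0614). Spc25, of the NDC80 kinetochore complex, had 0.66 ± 0.16, and Ncapd2, a condensin subunit, 0.41 ± 0.097. DESeq2 and edgeR each called 0 of the 61 after adjustment.

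Of 48 other replication genes, 39 had a fold change above 0, 9 were higher at an unadjusted edgeR p under 0.05 and 0 lower, and the median was 0.24. The 3 of smallest p were Chaf1a, a subunit of the chromatin assembly factor at forks (0.51 ± 0.12), 2810417H13Rik, the symbol used in the table for the PCNA-associated factor Pclaf (0.51 ± 0.13), and Lig1, the ligase that joins Okazaki fragments (0.32 ± 0.087). DESeq2 and edgeR called 0 of these 48 after adjustment. The median over the listed replication genes was lower than the median of the 19 S phase members (0.39), and the lists were not tested against each other.

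Of 17 G1 regulators, 13 had a fold change above 0, while the CDK inhibitors described next went both ways. At an unadjusted edgeR p under 0.05, 4 of the 17 were higher and 0 lower. The median log2 fold change of the 17 was 0.17, and it was 0.050 without heterozygous replicate 1. Ccnd3, the D-type cyclin D3, rose by DESeq2 from 115 and 133 CPM in heterozygous to 168 and 167 CPM in homozygous pools (log2 fold change 0.43 ± 0.096, edgeR adjusted p = 0.208, DESeq2 adjusted p = 0.0142). E2f7, the partner of E2f8 in repression, had 0.63 ± 0.20 and Cdk6, a kinase that D cyclins bind, 0.77 ± 0.28, neither past DESeq2. The call of Ccnd3 was lost without any 1 of the 4 pools (DESeq2 adjusted p of 0.158 to 0.897).

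Of the CDK inhibitors, 6 of 7 passed the filter on low counts. At an unadjusted edgeR p under 0.05, 1 was higher and 1 lower, against 4.36% and 8.91% of all genes. The median log2 fold change was -0.098. Cdkn2c, the inhibitor p18INK4c of CDK4 and CDK6, rose by DESeq2 from 14.1 and 20.7 CPM to 28.5 and 29.5 CPM (0.74 ± 0.20, edgeR adjusted p = 0.262, DESeq2 adjusted p = 0.0353). That call was lost without heterozygous replicate 1 (0.822), homozygous replicate 1 (0.208) or homozygous replicate 2 (0.459). Cdkn1a, the inhibitor p21, had 217 and 209 CPM in heterozygous and 174 and 162 CPM in homozygous pools, a log2 fold change of -0.34 ± 0.082 with an edgeR adjusted p of 0.225 and a DESeq2 adjusted p of 0.0537. Cdkn1b, the inhibitor p27 that keeps cochlear supporting cells out of the cycle, had -0.16 ± 0.10. Its pools did not overlap, at 303 and 346 CPM against 292 and 291 CPM.

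Of 15 checkpoint and repair genes, 2 were higher and 1 lower at an unadjusted edgeR p under 0.05, against 4.36% and 8.91% of all genes. The median log2 fold change was 0.31. Trp53, the tumour suppressor p53, rose by DESeq2 from 65.5 and 65.6 CPM to 83.7 and 91.7 CPM (0.42 ± 0.080, edgeR adjusted p = 0.172, DESeq2 adjusted p = 0.014), a call lost without any 1 of the 4 pools (lowest DESeq2 adjusted p 0.109) and with the replicate block (0.087). Wee1, the kinase that holds CDK1 inactive before mitosis, had -0.32 ± 0.11 (edgeR adjusted p = 0.341), opposite in sign to Cdk1.

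**Figure D3:**
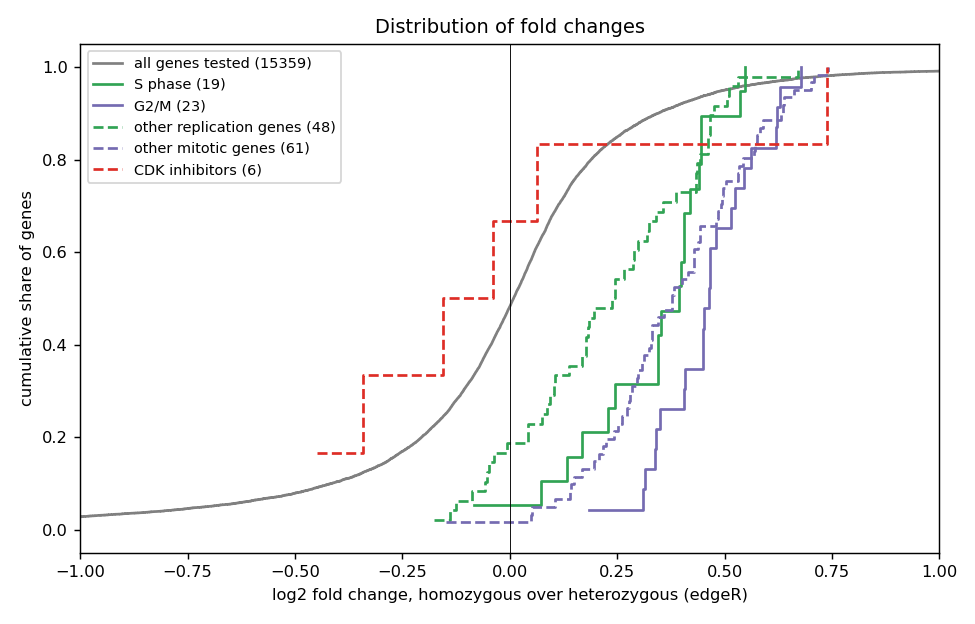
Cumulative share of genes against log2 fold change (homozygous over heterozygous, edgeR) for all 15359 genes tested, the 19 S phase and 23 G2/M genes, and lists of other replication genes, other mitotic genes and CDK inhibitors. The x axis is limited to changes between -1 and 1, and the median of the G2/M genes (0.46) lies to the right of that of the S phase genes (0.39) and of all genes (0.0087).

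Markers of fibroblasts, Schwann cells and neurons moved with genotype in the same libraries. Of 12 fibroblast and mesenchyme markers, 5 rose by DESeq2 and 0 fell, against 0.986% of its genes higher and 3.16% lower. The summed fibroblast level was 9236 and 7964 CPM in heterozygous and 11791 and 12658 CPM in homozygous replicates 1 and 2. Tbx18, Pou3f4, Otor and Coch overlapped between genotypes. Of 14 Schwann cell markers, 6 fell and 0 rose, with sums of 45152 to 47149 CPM against 23693 to 28428 CPM. Sox10 overlapped between genotypes, and Erbb3, Foxd3 and Ngfr were higher in both homozygous pools. Of 11 neuronal markers 7 fell and 0 rose, with sums of 7206 to 7504 CPM against 4830 to 4981 CPM. Stmn2 overlapped between genotypes, and Prph was higher in both homozygous pools. No marker of these 3 lists was at 0 in every library. The part of these shifts in the cell cycle genes was not tested.

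Bone and cartilage markers (11 listed, 0 past DESeq2) summed to 6716 and 4380 CPM in heterozygous replicates 1 and 2 and to 7575 and 7272 CPM in homozygous pools. Their sum too was higher in both homozygous pools, as were Col2a1 (3275 and 3167 against 3679 and 4908 CPM), Spp1 and Acan. Ibsp (1985 and 278 against 2148 and 1014 CPM), Bglap, Alpl, Sp7, Runx2, Sox9, Matn1 and Col10a1 overlapped between genotypes. In the bone and the fibroblast sums heterozygous replicate 2 was the lowest library, and in the S phase and G2/M sums heterozygous replicate 1 was. The part of these markers in the cell cycle genes was not tested. The sums of 3 further lists overlapped between genotypes. Macrophage markers summed to 231 to 319 CPM in heterozygous and 263 to 306 CPM in homozygous pools, and 0 of 9 passed DESeq2. Endothelial and pericyte markers summed to 366 to 520 against 453 to 534 CPM, with 0 of 9 past DESeq2. Erythroid markers summed to 358 to 504 against 344 to 484 CPM, and among the 9 in the table Hbb-bs rose and Hba-a2 fell.

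Marrow myeloid markers summed to 2.25 to 3.40 CPM over all libraries, with Ms4a3 at 0 in every library, below the level of most single members. Lymphoid markers summed to 3.77 and 3.02 CPM in heterozygous and to 4.32 and 6.11 CPM in homozygous pools, higher in both homozygous pools, with 0 of 7 past DESeq2. Of 8 central glia markers 3 fell by DESeq2, and homozygous replicate 2 stood apart, at 425 CPM against 1301 to 1361 CPM in heterozygous pools and 1166 CPM in homozygous replicate 1. Supporting cell markers summed to 579 to 634 CPM in heterozygous and 562 to 750 CPM in homozygous pools. Of 11 of them 1 rose by DESeq2, the progenitor marker Lgr5, and 2 fell, Fgfr3 and Slc1a3.

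Osteoclast markers (6 listed, 0 past DESeq2) summed to 85.0 to 312 CPM in heterozygous and 158 to 180 CPM in homozygous pools. Hair cell markers (9 listed, 0 past DESeq2) summed to 212 to 217 against 172 to 189 CPM. Most of that sum was Myo6, at 157 and 158 against 136 and 108 CPM, which other cells also express. Slc17a8, the vesicular glutamate transporter of inner hair cells, went the other way, at 13.2 and 6.83 against 14.2 and 15.4 CPM, and Atoh1, Pou4f3, Gfi1, Slc26a5 and Tmc1 were at or near 0. Of 7 skeletal muscle markers Ryr1 fell by DESeq2, and their sums were 9.59 to 19.7 against 3.24 to 3.62 CPM.

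**Figure D4:**
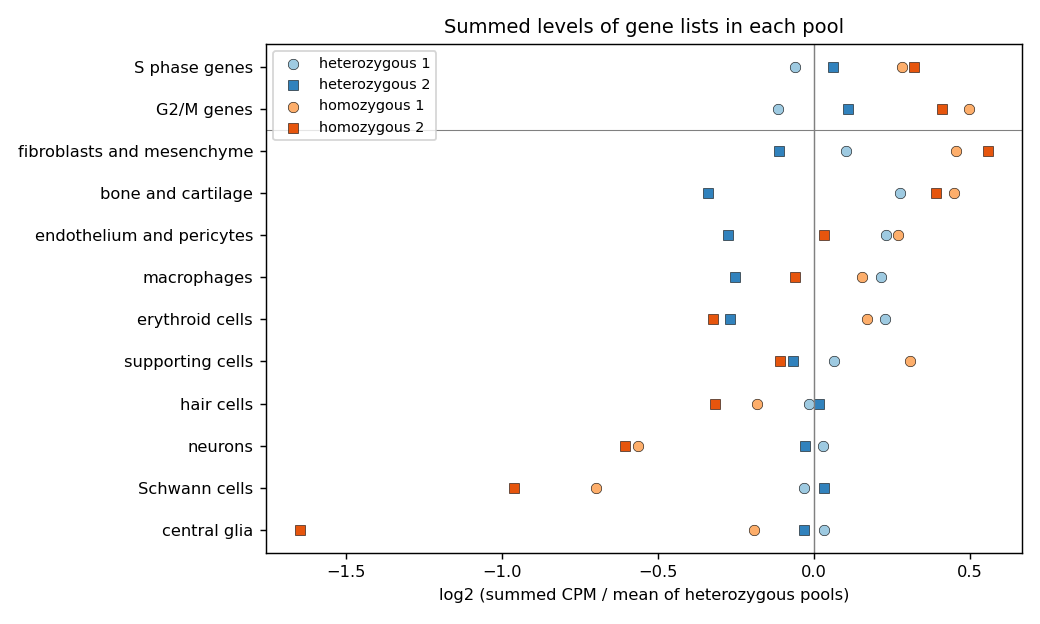
Summed CPM of the S phase genes, the G2/M genes and markers of 10 cell types in each pool, as log2 of the ratio to the mean of the heterozygous pools. Circles are replicate 1 and squares replicate 2, and homozygous pools (orange) lie right of heterozygous pools (blue) for the cell cycle genes and for fibroblast and bone markers, and left of them for hair cell (mostly Myo6), neuronal, Schwann cell and central glia markers.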

How the data were processed

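Members, phases and lists were chosen with earlier results of these data known. The authors deposited estimated counts per gene symbol, made with Salmon on mm10 per the submitters' processing notes. The series' design text names an nf-core workflow. Their versions, the annotation and the strand setting were not stated. The authors' deposited DESeq2 table holds, per the file headers, log2 fold changes, a Wald score, p-values and the mean normalised signal.

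Counts were rounded. edgeR 4.0.16 (R 4.3.3; quasi-likelihood test, TMM scaling, genes kept by filterByExpr) was the main test, with genotype as the only term and adjustment over 15359 genes. Standard errors are implied by the F statistic, and CPM use scaled library sizes. DESeq2 1.42.0 (default settings) was run beside it, and rose and fell are used for its calls at an adjusted p of 0.05. On data simulated from these libraries both tools recovered most of the changes put in, all of which were larger than the change of any member. Recovery of changes as small as those of the members was not simulated. Both tools, DESeq2 more than edgeR, made more false calls than the threshold allows. The pools of each genotype differed beyond counting noise (chi-square over degrees of freedom, 29.9 heterozygous and 49.3 homozygous). Positions and exon lengths come from GENCODE M21 on GRCm38, also called mm10. Symbols missing from the table were matched by RefSeq synonyms.

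Values in each pool are given for members called by either tool, the 6 S phase and 8 G2/M members of smallest edgeR p, the lowest fold change of each phase and members within 10 Mb of Otof. Others, Cenpa among them, were chosen after their values were seen. From other lists the 3 genes of smallest p and any called gene are named, except 1 gene that is not reported here. Other size factors and filters, a replicate block and leaving out each pool were tried.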

Additional observations from a re-analysis of the deposited data

How the results depend on the processing

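The count of members higher at an unadjusted edgeR p under 0.05 (22) was 23 to 28 with other size factors, other filters or the replicate block, and 6 to 20 with a pool left out. For the other cell cycle lists together it was 32, and 6 to 25 with a pool left out. edgeR's adjusted count of members was 0 in every setting run. DESeq2's count of 2 became 4 with a filter of at least 1 CPM in 2 pools, which added Mcm7 and Top2a to Aurkb and Uhrf1, and 4 with edgeR's filter, an alternative chosen after seeing the data. No member kept a call once a pool was left out, although calls over the whole table did not fall in every such fit.

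Whether replicate numbers pair the pools is not stated in the labels, and with 2 pools per genotype the data do not settle it. The deviations of same-numbered pools correlated at 0.36 over all genes and at -0.16 over the members. With the replicate block DESeq2 called 0 members but 608 genes of the whole table (664 without it). With the same block edgeR called 495 genes of the whole table (0 without it) but 0 members. Without homozygous replicate 1 edgeR called 60 genes of the whole table.

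With a pool left out, the median log2 fold change ranged from 0.25 to 0.43 for S phase genes, 0.33 to 0.58 for G2/M genes, 0.050 to 0.21 for G1 regulators, -0.11 to -0.029 for CDK inhibitors, and 0.23 to 0.29 for checkpoint and repair genes. The CDK inhibitor median was -0.074 with upper quartile size factors and -0.085 with no filter. Ccne1 ranged from -0.20 to 0.045 with a pool left out, the latter without heterozygous replicate 2, and the cause was not tested. Bub1 (0.31) ranged from -0.0036, without homozygous replicate 1, to 0.57, and the cause was not tested. No other member and no other gene named from the cell cycle lists changed sign in the settings run. With the replicate block Trp53 passed edgeR (adjusted p = 0.0472). The median of all genes stayed between -0.0089 and 0.033 in every setting. Precision is limited by having 2 pools per genotype.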
